A study of Saccharomyces cerevisiae with 8 samples.

Results

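The genes described here are the 10 Saccharomyces cerevisiae genes of ethanol and acetate metabolism: the pyruvate decarboxylases PDC1, PDC5 and PDC6, the alcohol dehydrogenases ADH1, ADH2 and ADH3, the aldehyde dehydrogenases ALD4 and ALD6, and the acetyl-CoA synthetases ACS1 and ACS2. They were chosen by name, from what the enzymes do, with earlier results of these data known. All 10 were found among the 6532 entries of the count table, each as a single unmerged entry, and all 10 passed the filter on low counts. PAT-seq reads transcripts from their 3′ ends into the poly(A) tail, and had been applied to strain BY4741, a laboratory wild type of genotype MATa his3Δ1 leu2Δ0 met15Δ0 ura3Δ0 that all groups shared. Cells were taken at mid log phase in liquid culture (Log phase), or after such cells had been plated on solid medium and grown for 2, 3 or 4 days (Day 2, Day 3 and Day 4), with 2 libraries in each of the 4 groups and 8 in all. The submitters' stated question was whether gene expression and the choice of polyadenylation site are linked; site choice was not analysed here.

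Libraries held between 6203115 and 8441949 counts, of which the 10 genes took between 0.658% and 1.29%. The labels do not say whether the replicates were separate cultures or platings, so the tests see only how far these libraries spread, which may be technical. Liquid against solid medium, colony growth and elapsed time changed together between Log phase and the colonies and cannot be told apart. In RNA from whole cell pellets, fewer cells of a type and less RNA per cell cannot be told apart either. MET17, the gene at the met15 deletion, was at 0 in each of the 8 libraries. A count of 0 allows a level of up to 0.474 CPM, taking 3 counts as the limit. CPM here are counts per 1e6 counts of a library after edgeR scaled its total by the TMM method, for this limit and for all levels below. LEU2 and URA3 had at most 10 and 8 counts in any library.

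Yeast growing on glucose turns most pyruvate into ethanol: pyruvate decarboxylase releases acetaldehyde, and alcohol dehydrogenase reduces it to ethanol while restoring NAD+. When glucose runs out, the cells change over to respiration and take the ethanol up again through acetaldehyde, acetate and acetyl-CoA, a change known as the diauxic shift. Several steps have 1 isozyme used for fermentation and another repressed by glucose. ADH2, ACS1 and ALD4 are known targets of the activators Adr1 and Cat8 in this repression circuit, which works through the kinase Snf1 and the repressor Mig1.

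Because ADH2 and ACS1 rose far more than their sister genes below, short windows that hold the Adr1 half-site TTGGNG are shown for these genes, for ALD4, and for ADH1 as the sister of ADH2. Each window is 30 bases of the R64 reference, read 5′ to 3′ on the strand of the gene, with the half-site or its reverse complement in capitals.
ADH2, chrXIII:874604-874633, minus strand: ggcatCTCCAActtataagTTGGAGaaata
ALD4, chrXV:1039612-1039641, plus strand: tatctttttCTCCAACTCCAAcagagatgg
ACS1, outermost site, chrI:45303-45332, minus strand: cgtggcaaatgaTTGGGGtcatcctttttt
ACS1, middle site, chrI:45243-45272, minus strand: aaaaaaaaaggTTGGGGtacgaattgccgc
ACS1, innermost site, chrI:45189-45218, minus strand: tgggtattgcagTTGGGGtacagttcctcg
ADH1, chrXV:160873-160902, minus strand: cgacaaagacagCACCAAcagatgtcgttg
The ADH2 window lies upstream of the coding start and holds both orientations of the half-site as an inverted repeat, whereas the ALD4 window holds 2 copies in the same orientation that share no base. Both orientations of TTGGNG were searched from 250 bases before to 50 after the coding start. ALD4 and ACS1 held a match, as did 34.1% of all 6001 promoters of that length. With 600 bases before the start, a window chosen after seeing the data, 7 of the 10 genes held one (PDC1, PDC6, ADH1, ADH2, ALD4, ACS1 and ACS2), against 59.8% of promoters. The windows of ADH2 and ADH1 and the outermost one of ACS1 come from that search. In it, ALD4 and ADH1 each held 1 further match that is not shown. Also not shown are the matches of PDC1, PDC6 and ACS2, although PDC6 too rose far more than its sister genes. Matches were thus found at genes that rose and at genes that fell, with N standing for any base. Read in the direction of TTGGNG, N was A or G in every match at ADH2, ALD4 and ACS1. It was T in those at PDC1, PDC6 and ADH1, and C in that at ACS2. All are only descriptions of letters, and whether the base at N matters was not tested. In the shorter window the Mig1 letters GCGGGG were found at 0 of the 10 genes and 2.57% of promoters. The letters AGGGG, the stress response element, which may overlap GCGGGG, were found at ALD4 and ALD6 and at 21.6% of promoters. The carbon source-responsive element was found at 0 of the 10 genes and 0.0833% of promoters.

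Pyruvate decarboxylase commits pyruvate to ethanol, and PDC1 encodes its main form in fermenting cells. PDC1 lies at chrXII:232390-234081 on the minus strand of R64. Its level was 8908 and 8254 CPM in Log phase, 3165 and 3761 on Day 2, 1012 and 1278 on Day 3, and 1599 and 1590.2 on Day 4. No 2 groups overlapped: both Log phase libraries were above every colony library, and both Day 3 libraries were the lowest. Against Log phase the log2 level fell by 1.31 ± 0.15 on Day 2 (standard error derived from the edgeR test, adjusted p = 7.18e-08). It fell by 2.91 ± 0.15 (8.89e-14) on Day 3 and by 2.43 ± 0.15 (9.34e-13) on Day 4, also against Log phase. Between Day 2 and Day 3 it fell by 1.60 ± 0.15 (adjusted p = 9.43e-09). Between Day 3 and Day 4 it rose by 0.48 ± 0.14 (edgeR adjusted p = 0.0172). That rise was not called without Day 3 replicate 1 (adjusted p = 0.216), without Day 4 replicate 1 (0.116), without Day 4 replicate 2 (0.115), or when only reads with a tail were counted (0.0901).

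PDC5, the second fermentative form, which is known to be induced when PDC1 is lost, lies on the plus strand at chrXII:410723-412414. It stood at 32.3 and 35.4 CPM in Log phase, 28.1 and 37.9 on Day 2, 17.7 and 26.2 on Day 3, and 20.0 and 18.2 on Day 4. The Log phase and Day 2 libraries overlapped and lay above the later ones, which overlapped each other. The log2 change against Log phase was −0.03 ± 0.22 on Day 2 (edgeR adjusted p = 0.916), and the level fell by 0.62 ± 0.23 on Day 3 (0.0185) and by 0.82 ± 0.23 on Day 4 (0.00262). Neither fall was called when libraries were scaled by total counts alone (adjusted p = 0.403 and 0.146). The Day 3 fall was not called without Log phase replicate 2 (0.107) or Day 3 replicate 1 (0.229), or with tailed reads only (0.0909). The fall of 0.59 ± 0.23 from Day 2 to Day 3 (0.0339) was not called by DESeq2 (0.0639), with tailed reads only (0.0591), without Log phase replicate 2 (0.0501), without Day 2 replicate 2 (0.277), or without Day 3 replicate 1 (0.330).

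PDC6, a minor decarboxylase known to be low in glucose and induced under sulfur limitation, moved the other way. It lies at chrVII:651290-652981 on the minus strand. Its level was 9.05 and 7.91 CPM in Log phase, 13.1 and 16.2 on Day 2, 71.9 and 61.5 on Day 3, and 208 and 229.9 on Day 4. The groups were ordered Log phase, Day 2, Day 3, Day 4 with no overlap. Against Log phase the log2 level rose by 0.79 ± 0.21 (edgeR adjusted p = 0.00306), 2.97 ± 0.20 (4.24e-12) and 4.69 ± 0.20 (2.04e-15), the last a 25.8-fold rise. Each further step also rose, by 2.18 ± 0.18 from Day 2 to Day 3 (2.43e-09) and by 1.72 ± 0.16 from Day 3 to Day 4 (4.69e-07).

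**Figure D1:**
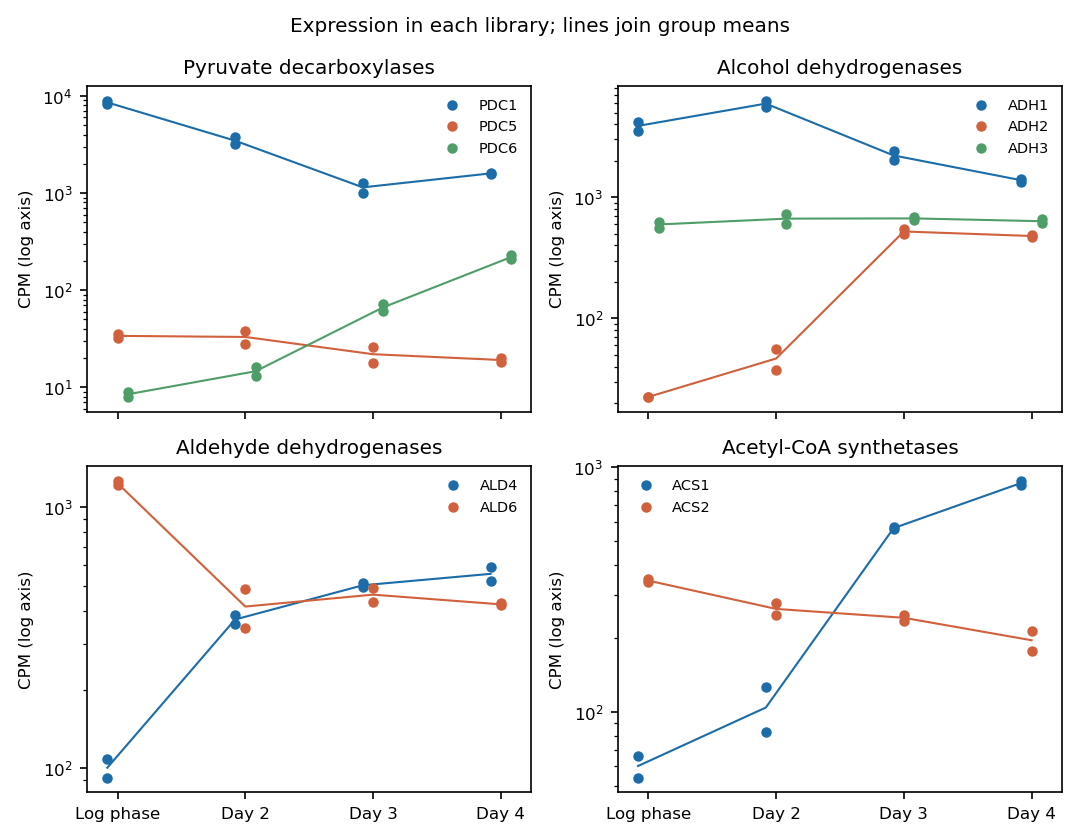
Level of each of the 10 genes in the 8 libraries, in TMM-scaled CPM on a log axis, with points for libraries and lines joining group means. PDC6, ADH2, ACS1 and ALD4 lie higher in every Day 3 and Day 4 library than in Log phase, PDC1 and ALD6 lie lower, and ADH3 stays between 562 and 729 CPM.

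ADH1 encodes the cytosolic alcohol dehydrogenase that makes ethanol from acetaldehyde. It lies at chrXV:159548-160594, minus strand. Its level was 4208 and 3552 CPM in Log phase, 5604 and 6248 on Day 2, 2025 and 2399.8 on Day 3, and 1419.5 and 1341 on Day 4. Day 2 was the highest group and Day 4 the lowest, and none of the 4 overlapped. The log2 level rose by 0.61 ± 0.14 from Log phase to Day 2 (edgeR adjusted p = 7.68e-04) and was then lower than Log phase, by a change of −0.81 ± 0.14 on Day 3 (2.3e-05) and −1.49 ± 0.14 on Day 4 (2.31e-09). Counting tailed reads only, the Day 2 change was 0.11 and was not called (adjusted p = 0.618), while the Day 3 and Day 4 changes were larger, at −1.25 and −1.86. From Day 2 the level fell by 1.42 ± 0.14 to Day 3 (3.38e-08), and from Day 3 by 0.68 ± 0.14 to Day 4 (0.0012).

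ADH2 encodes the glucose-repressed enzyme that oxidises ethanol back to acetaldehyde. It lies at chrXIII:873291-874337 on the minus strand. Its level was 22.6 and 22.3 CPM in Log phase, 55.9 and 37.2 on Day 2, 545 and 497 on Day 3, and 467 and 489.6 on Day 4. Day 2 lay just above Log phase, and all 4 Day 3 and Day 4 libraries stood far above both, with Day 3 above Day 4. The log2 level rose by 1.05 ± 0.19 to Day 2 (edgeR adjusted p = 4.73e-05), by 4.54 ± 0.19 to Day 3 (3.17e-15) and by 4.41 ± 0.19 to Day 4 (2.75e-15), all against Log phase. The steps between days were a rise of 3.49 ± 0.18 from Day 2 to Day 3, or 11.3-fold (3.75e-12), and a change of −0.12 ± 0.16 from Day 3 to Day 4 that was not called (0.608).

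ADH3 encodes the mitochondrial alcohol dehydrogenase, which takes part in shuttling reducing equivalents across the inner membrane. It lies at chrXIII:434788-435915, plus strand. It had 629 and 562 CPM in Log phase, 601 and 729 on Day 2, 688 and 649 on Day 3, and 655 and 611 on Day 4. All 4 groups overlapped with at least one other, and their order was not resolved. None of the 6 comparisons was called; against Log phase the log2 changes were 0.16 ± 0.14, 0.17 ± 0.14 and 0.09 ± 0.14 (edgeR adjusted p = 0.358, 0.312 and 0.589). Scaling by total counts alone called all 3 higher, at 0.54, 0.56 and 0.53, and that scaling also moved the median of all genes to 0.40, 0.41 and 0.45.

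The ADH isozymes resemble each other, which matters for how reads are assigned. ADH1 and ADH2 had 88.8% identity over their coding sequences of 1047 bases, with a longest shared run of 189 bases, longer than the 75-base reads. Within the last 75 coding bases and the 150 bases after them, where reads near the 3′ end begin, the longest shared run was 34 bases. Downstream of the stop codon identity was 58.2%. PDC1 and PDC5 were 87.2% identical, with a longest shared coding run of 65 bases. How the authors treated reads matching 2 places is not given in the sources used here, so small changes of ADH2 and PDC5 beside their abundant sisters are uncertain.

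Aldehyde dehydrogenase oxidises acetaldehyde to acetate, and ALD6 encodes its main cytosolic form, a source of acetate and NADPH in fermenting cells. It lies at chrXVI:432588-434090, plus strand. Its level was 1256 and 1211 CPM in Log phase, 344 and 487 on Day 2, 489 and 434 on Day 3, and 428 and 420.1 on Day 4. All 6 colony libraries were below both Log phase libraries, and the 3 colony groups lay close together. Against Log phase the log2 level fell by 1.57 ± 0.16 (edgeR adjusted p = 1.68e-08), 1.42 ± 0.16 (3.23e-08) and 1.54 ± 0.16 (7.05e-09) on Days 2, 3 and 4. No comparison between days was called. Without Day 2 replicate 2, the Day 3 level was called higher than Day 2, by 0.42 (adjusted p = 0.0163), where all libraries gave 0.15 ± 0.16.

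ALD4, the mitochondrial aldehyde dehydrogenase, which is repressed by glucose, lies at chrXV:1039840-1041399 on the plus strand. It had 109 and 92.0 CPM in Log phase, 386 and 356 on Day 2, 511 and 492 on Day 3, and 522 and 587 on Day 4. The groups did not overlap and followed the order of sampling. The largest step came first: the log2 level rose by 1.88 ± 0.15 from Log phase to Day 2 (edgeR adjusted p = 4.31e-10), and stood 2.32 ± 0.15 (4.04e-12) and 2.47 ± 0.15 (1.02e-12) above Log phase on Days 3 and 4. From Day 2 to Day 3 it rose by 0.44 ± 0.14 (0.0155), a call lost without Day 3 replicate 1 (0.0777). The Day 3 to Day 4 change of 0.15 ± 0.14 was not called (0.494), and was called at 0.48 with tailed reads only (0.0376).

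Acetyl-CoA synthetase activates acetate, and ACS2 encodes the form that cells need on glucose. It lies at chrXII:445524-447575, minus strand. It stood at 340.4 and 349 CPM in Log phase, 248 and 279 on Day 2, 249.6 and 236 on Day 3, and 215 and 178 on Day 4. Log phase was the highest group and Day 4 the lowest, and Days 2 and 3 overlapped. The log2 level fell against Log phase by 0.38 ± 0.15 (edgeR adjusted p = 0.0306), 0.51 ± 0.15 (0.00424) and 0.81 ± 0.15 (3.6e-05) on Days 2, 3 and 4. The first 2 falls were lost with scaling by total counts alone (0.991 and 0.537), and the Day 2 fall also without Log phase replicate 1 (0.0938), Log phase replicate 2 (0.128) or Day 2 replicate 1 (0.106). The change from Day 2 to Day 4 was −0.43 ± 0.15 (0.0155), and was not called without Day 4 replicate 2 (0.219).

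ACS1, the form used on acetate and ethanol and repressed by glucose, lies at chrI:42881-45022 on the minus strand. Its level was 66.4 and 53.9 CPM in Log phase, 126 and 82.7 on Day 2, 557 and 571 on Day 3, and 849.5 and 878 on Day 4. The groups did not overlap and rose in the order of sampling, with Day 2 far closer to Log phase than to Day 3. Against Log phase the log2 level rose by 0.79 ± 0.18 (edgeR adjusted p = 6.05e-04), 3.23 ± 0.19 (3.52e-13) and 3.84 ± 0.19 (1.69e-14), which is 14.3-fold on Day 4. It rose by 2.44 ± 0.18 from Day 2 to Day 3 (3.76e-10) and by 0.61 ± 0.17 from Day 3 to Day 4 (0.00913). The last call was lost when any of the 4 Day 3 and Day 4 libraries was left out in turn (adjusted p = 0.0721 and 0.0635 without Day 3 replicates 1 and 2, 0.0658 and 0.0947 without Day 4 replicates 1 and 2) and with tailed reads only (0.0592).

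**Figure D2:**
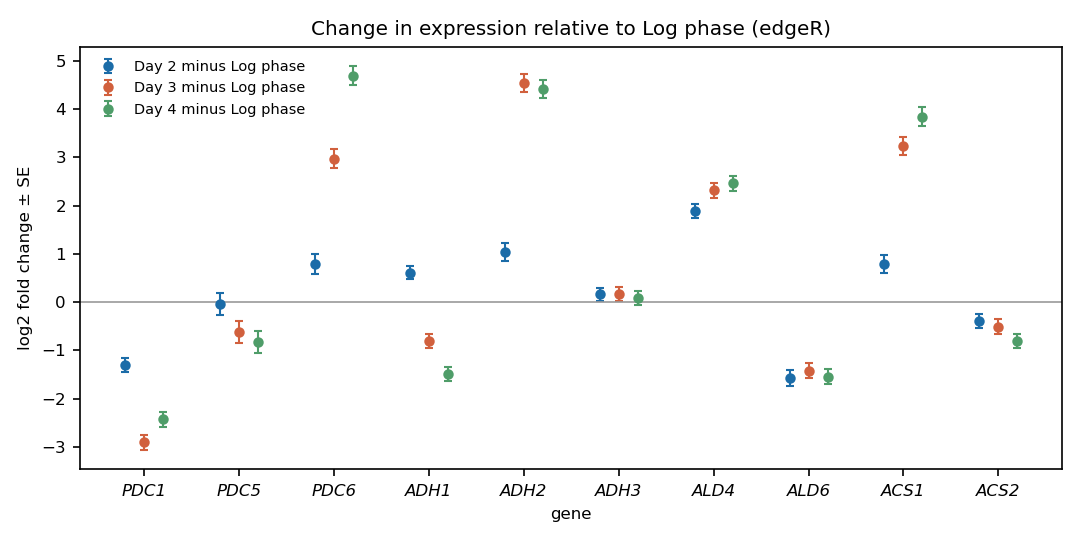
Log2 change of each gene against Log phase on Days 2, 3 and 4, with bars of 1 standard error derived from the edgeR test. PDC6, ADH2 and ACS1 lie between 0.79 and 1.05 on Day 2 and at 2.97 or more on Days 3 and 4, ALD4 and ALD6 are already far from 0 on Day 2, and the ADH3 points lie between 0.09 and 0.17.

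Counted over the 10 genes, 5 were called higher and 3 lower on Day 2 than in Log phase, in a comparison that called 28.3% of the 5930 genes tested higher and 28.2% lower. On Day 3 the counts were 4 higher and 5 lower, beside 34.5% and 34.4% of all genes, and on Day 4 again 4 and 5, beside 37.2% and 37%. These 3 comparisons share the Log phase libraries. Over 10 genes these counts are near the background and are no result about the set. The members' median log2 change was 0.39, −0.17 and −0.36 on Days 2, 3 and 4, beside 0.02, 0.01 and 0.01 over all genes.

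From Day 2 to Day 3, 7 of the 10 genes were called, with 4 genes higher (PDC6, ADH2, ALD4 and ACS1) and 3 lower (PDC1, PDC5 and ADH1), beside 24.2% and 25.2% of all genes. From Day 3 to Day 4, 3 were higher (PDC1, PDC6 and ACS1) and ADH1 was lower, beside 11.8% and 14.6%. From Day 2 to Day 4, 4 were higher and 4 lower, beside 30.5% and 32.4%. The rises over that span were 3.89 for PDC6, 3.37 for ADH2, 3.05 for ACS1 and 0.58 for ALD4 on the log2 scale. The changes of the 4 lower genes were −2.10 for ADH1, −1.12 for PDC1, −0.79 for PDC5 and −0.43 for ACS2, and the PDC5 call was lost without Day 2 replicate 2 (edgeR adjusted p = 0.0647). The members' median log2 changes over these 3 spans were 0.08, −0.10 and −0.02.

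Within each enzyme set the balance of isozymes moved toward the glucose-repressed or minor form. Shares here are percentages of the counts of one set. Isozyme coding lengths are equal or nearly so within a set, and counts per kb of gene length, a scale added after seeing the data, moved the shares of PDC6, ADH2, ALD4 and ACS1 by less than 1 SD in every group. PDC6 made up 0.0982% ± 0.00412 (SD, n = 2) of pyruvate decarboxylase counts in Log phase. On Day 2 it made up 0.416% ± 0.0104, on Day 3 it reached 5.51% ± 1.43, and by Day 4 it was at 12.0% ± 0.783. PDC1 nonetheless kept 87.0% of that set on Day 4. The set as a whole fell from 8623 ± 461 CPM in Log phase to 1234 ± 187 on Day 3, and stood at 1833 ± 7.57 on Day 4.

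ADH2 made up 0.502% ± 0.0531 (SD, n = 2) of alcohol dehydrogenase counts in Log phase and 0.712% ± 0.256 on Day 2, where the libraries stood at 0.892% and 0.531%. Its share was then 15.4% ± 1.91 on Day 3 and 19.2% ± 1.19 on Day 4. ADH3 reached 25.4% of the set on Day 4 with no called change of its own, while ADH1 went from 86.2% in Log phase to 55.4%. ADH1 was the most counted of the 3 in every library, but counting tailed reads only ADH3 led in 3 of the 4 Day 3 and Day 4 libraries. By tailed reads ADH3 held 40.2% on Day 3 and 45.7% on Day 4, beside 40.5% and 31.1% for ADH1.

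For the aldehyde dehydrogenases, the ALD4 share was 7.52% ± 0.639 (SD, n = 2) in Log phase and 47.5% ± 7.49 on Day 2, then 52.1% on Day 3 and 56.6% on Day 4, so most of the change was in place by Day 2. ALD6 led in 1 of the 2 Day 2 libraries (57.8%) and ALD4 in the other (52.8%). The ACS1 share was 14.9% ± 2.07 in Log phase and 28.2% ± 7.64 on Day 2. It then reached 69.9% ± 1.22 on Day 3 and 81.5% ± 2.40 on Day 4. With tailed reads only the Log phase share was 8.91%, and the count table held 0.722 times the ACS2 reads of the authors' gene table. ACS2 led in every Log phase and Day 2 library and ACS1 in every Day 3 and Day 4 library. The widest 95% Wilson interval of any of these library shares reached 1.89 percentage points to either side, for counting error only. The groups of 2 did not overlap between Log phase and Day 4 in any set, but an exact permutation test of 2 against 2 libraries cannot give a two-sided p under 0.333.

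**Figure D3:**
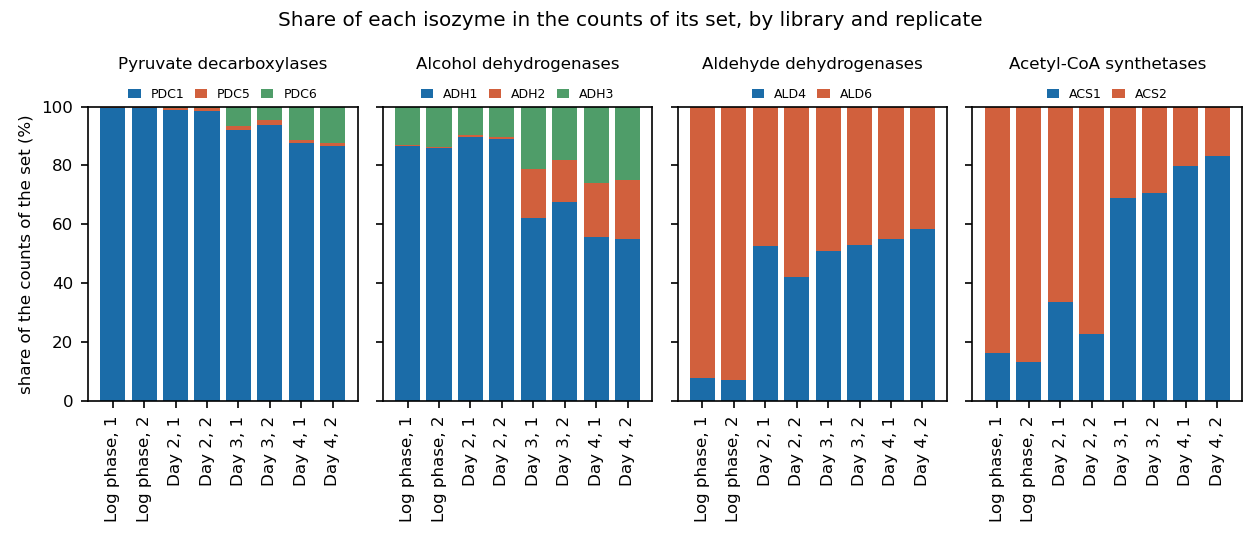
Percentage of each enzyme set's counts that came from each isozyme, stacked to 100% per library. PDC6, ADH2 and ACS1 widen between Day 2 and Day 3, and ALD4 already holds 42.2% and 52.8% of its set in the Day 2 libraries.

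Tail length was given per gene and library as the mean number of A bases in tailed reads, and was tested with limma. A tail could be read only within the 75 bases of a read, so these means may fall short of full tail lengths. Library medians over genes were 19.6 and 19.1 nt in Log phase, 20.3 and 20.5 on Day 2, 18.2 and 18.3 on Day 3, and 18.1 and 17.9 on Day 4. The median gene changed by 0.96 nt on Day 2, −0.97 on Day 3 and −1.16 on Day 4 against Log phase. Called changes were therefore also tested less the library median, a setting added after seeing the data. For that setting the median was taken over the genes tested only, not over all genes as above. Mean tails of the 10 genes ranged from 11.6 nt for ALD6 to 24.4 nt for PDC1, and the calls against Log phase were of ALD6 and ADH1, in opposite directions.

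ALD6 tails averaged 12.5 and 11.6 nt in Log phase, 16.7 and 15.6 on Day 2, 14.3 and 14.7 on Day 3, and 15.5 and 16.5 on Day 4. Every colony library was above both Log phase libraries, while the ALD6 level had fallen. ALD6 was the 1 member called higher on Day 2, by 4.13 ± 0.73 nt (limma adjusted p = 0.0465), beside 1.1% of all 5388 genes tested called higher and 0.0928% lower. It was also called higher on Day 4, by 3.94 ± 0.73 nt (0.0184), and by 5.34 nt less the library medians (0.0159). Neither call held against every change of setting: leaving out each of the 8 libraries in turn gave adjusted p from 0.0627 to 0.271 for Day 2. For Day 4 it was not called without Log phase replicate 1 (0.088), Log phase replicate 2 (0.0783), Day 4 replicate 1 (0.0517) or Day 4 replicate 2 (0.102). Less the library medians, the Day 2 change was 3.11 nt (0.112).

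ADH1 tails averaged 19.3 and 18.1 nt in Log phase, 16.4 and 16.4 on Day 2, 15.0 and 15.1 on Day 3, and 15.4 and 15.1 on Day 4. All colony libraries were below both Log phase libraries. ADH1 was the 1 member called shorter on Day 3, with a change of −3.69 ± 0.70 nt (limma adjusted p = 0.0445), beside 0.223% of genes called longer and 2.02% shorter. It was also the 1 member called shorter on Day 4, with a change of −3.50 ± 0.70 nt (0.0221), beside 1.19% longer and 8.61% shorter. Less the library medians, the Day 4 change was −2.10 nt and was not called (0.0818). The Day 4 call was lost without Log phase replicate 1 (0.129), Day 4 replicate 1 (0.0773) or Day 4 replicate 2 (0.111). The Day 3 call was lost without any 1 of 7 libraries (0.0502 to 0.203), Day 2 replicate 2 being the exception, and less the library medians (0.101).

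From Day 2 to Day 3, ACS1 tails fell by 2.67 ± 0.74 nt (limma adjusted p = 0.037) and ADH3 tails fell by 2.57 ± 0.79 nt (0.0484), beside 0.241% of genes called longer and 21.8% shorter. ACS1 averaged 20.0 and 19.8 nt on Day 2 and 17.0 and 17.5 on Day 3, and its Log phase libraries, at 17.0 and 16.2, were close to Day 3. ADH3 averaged 23.9 and 23.6 nt on Day 2 and 21.4 and 21.0 on Day 3. Both changes were close to the −1.95 nt of the median gene, and neither was called less the library medians (0.697 and 0.796). ADH3 was also called shorter on Day 4 than Day 2, with a change of −3.07 ± 0.79 nt (0.0208), beside 0.947% longer and 32% shorter. Less the library medians that change was −0.65 nt and was not called (0.618). The ADH3 call at Day 3 was lost without any 1 of the 8 libraries (0.062 to 0.161), and its Day 4 call without either Day 2 library (0.0761 and 0.0592) or either Day 4 library (0.0524 and 0.106). The ACS1 call was lost without any 1 of the 6 colony libraries (0.0525 to 0.147). From Day 3 to Day 4, 0 members were called and 0 had an unadjusted p under 0.05 with limma, beside 0% of all genes in either direction.

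PDC1, the most counted member, kept mean tails of 23.1 to 24.4 nt in all 8 libraries and was not called in any comparison of the tails as deposited. Less the library medians, it was called 3.32 nt longer on Day 4 than Day 2 (limma adjusted p = 0.0414), and ALD4 was called 3.38 nt longer on Day 4 than in Log phase (0.0388). PDC6 tails in Log phase, 23.1 and 17.0 nt, rest on 20 tailed reads in each library.

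**Figure D4:**
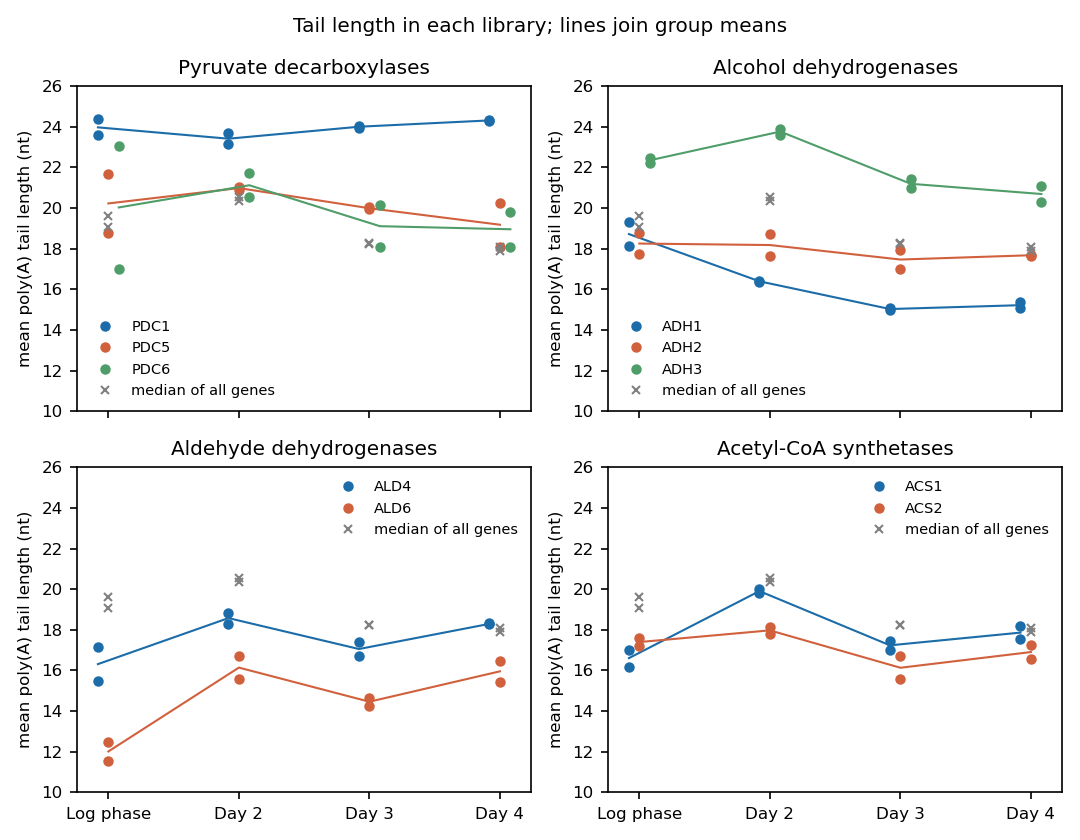
Mean tail length in nt of each gene in the 8 libraries, with the library medians over all genes. ALD6 lies lowest in Log phase and higher in every colony library, ADH1 lies higher in Log phase than in any colony library, and PDC1 stays between 23.1 and 24.4 nt.

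The share of reads that carried a tail also differed between members. Its median over genes with at least 100 counts was between 38.1% and 45.5% in the 8 libraries. ACS2 had 62.2% and 66.9% tailed in Log phase, 42.3% and 36.4% on Day 2, 31.6% and 35.2% on Day 3, and 31.3% and 27.5% on Day 4. Both Log phase libraries were above all colony libraries. The count table held 0.722 times the ACS2 reads of the authors' gene table (16252 of 22504), and the part of this gap in its tailed share was not tested. With tailed reads only, ACS2 fell further against Log phase, by 1.10, 1.29 and 1.73 on the log2 scale on Days 2, 3 and 4 (edgeR adjusted p = 7.97e-06, 4.41e-07 and 3.67e-09).

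ADH1 had a lower tailed share than the median gene in every library, with 31.6% and 23.6% in Log phase, 21.0% and 18.3% on Day 2, 17.9% and 18.4% on Day 3, and 19.3% and 18.3% on Day 4. The Log phase libraries were the highest but lay far apart. ADH3 had 55.5% to 62.5% in all 8 libraries, more than any library's median. ALD6 had 25.2% and 25.6% in Log phase and 38.1% and 33.7% on Day 2, then 26.5% to 28.9% on Days 3 and 4. The 95% Wilson intervals reached at most 0.697 percentage points to either side for ADH1, 2.42 for ACS2 and 13.1 for PDC6.

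Other genes of the pathway were counted in lists assembled with earlier results of these data known. Of 11 other alcohol and aldehyde enzymes, 6 were called higher and 2 lower than Log phase on each of Days 2, 3 and 4. Over all genes the shares called higher and lower were 28.3% and 28.2% on Day 2, 34.5% and 34.4% on Day 3, and 37.2% and 37% on Day 4, so the share called higher, 6 of 11, stood above those of all genes and was not tested. ALD3, a cytosolic stress-induced aldehyde dehydrogenase, was 3.46 ± 0.22 higher on the log2 scale on Day 2 (edgeR adjusted p = 9.02e-12). ACH1, which transfers CoA between acetate and succinate in mitochondria, was 4.20 ± 0.17 higher on Day 4 (1.46e-15). ADH6, an NADPH-dependent alcohol dehydrogenase, was lower on Day 4 by a change of −2.08 ± 0.17 (1.3e-10).

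In the branch that takes pyruvate into mitochondria or to oxaloacetate, 5 genes of 10 were called higher and 1 lower on Day 2, 5 and 3 on Day 3, and 4 and 2 on Day 4. Over all genes the shares called higher and lower were 28.3% and 28.2% on Day 2, 34.5% and 34.4% on Day 3, and 37.2% and 37% on Day 4. On Day 4, 4 and 2 of 10 are near or below the background. The 5 of 10 called higher on Days 2 and 3 stood above the share of all genes, which was not tested. MPC3, the subunit of the mitochondrial pyruvate carrier known from respiring cells, was 3.64 ± 0.20 higher on Day 4 (edgeR adjusted p = 7.68e-14). PYC1, a pyruvate carboxylase, was 2.63 ± 0.16 higher (6.64e-13). LAT1, the E2 subunit of pyruvate dehydrogenase, changed by −0.71 ± 0.14 (1.11e-04).

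Of the 13 regulators listed, 12 had an entry of their own, and 7 were called higher and 2 lower on Day 2, 8 and 2 on Day 3, and 8 and 1 on Day 4, beside 28.3% and 28.2%, 34.5% and 34.4%, and 37.2% and 37% of all genes. CAT8, the activator of the acetate and gluconeogenic genes, was 4.84 ± 0.23 higher on Day 4 (edgeR adjusted p = 7.69e-15). MIG1, a glucose repressor, was 2.48 ± 0.19 higher (3.52e-11). MIG2, the 1 regulator called lower on Day 4, changed by −4.59 ± 0.23 (edgeR adjusted p = 2.68e-14). ADR1, whose half-site was searched for above, was 3.93 ± 0.20 higher (2.73e-14), though the count table held only 0.456 times its reads in the gene table. These are transcript levels, and the activity of these proteins was not measured.

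Among 3778 genes with at least 50 CPM in some group, the 3 whose log2 levels over the 8 libraries were most like ADH1 were KEI1 (Pearson r = 0.994), VMA13 (0.985) and YHI9 (0.985). KEI1 averaged 112 CPM in Log phase and 139 on Day 2, then 84.2 on Day 3 and 60.7 on Day 4, the same order of groups as ADH1. The 3 most like ADH2 were YEL057C (r = 0.995), STP3 (0.994) and IRC18 (0.994). YEL057C averaged 33.9 CPM in Log phase and 46.3 on Day 2, then 245 on Day 3 and 215 on Day 4. These r values come from 8 libraries of 4 groups that share their library scaling, and are descriptions only.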

How the data were processed

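Per the labels' protocols, total RNA was made into PAT-seq libraries and sequenced with 75-base SOLiD chemistry. The authors deposited whole-number read counts per gene, counts of tailed reads, mean tail lengths in nt and a gene table whose fractions and positions served for identity only. Which aligner, tail rule and build were used is not given in the sources used here, but 5801 of 5813 entries shared with R64 lay at identical positions.

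The members and lists were chosen with earlier results of these data known. All 10 members are named whatever their p, with up to 3 genes per other list, MIG2 besides, and the 3 genes most like ADH1 and ADH2.

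Counts were tested with edgeR 4.0.16 (quasi-likelihood, TMM, filterByExpr, all 8 libraries in 1 fit) and tails with limma 3.58.1 in R 4.3.3 (at least 10 tailed reads per library, weighted by tailed reads up to 100). Benjamini-Hochberg adjustment ran over all genes tested, and a call is an adjusted p under 0.05. DESeq2 1.42.0 was an alternative. Errors are standard errors unless SD is given. For expression they were derived as the size of the log2 change over the square root of edgeR's F statistic. The scripts were tested on simulated data. Libraries held 6203115 to 8441949 counts, and intervals cover counting error only.

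Same-numbered replicates did not deviate together (r from −0.0349 to 0.00554), so the numbers were not taken as pairs. Sequences and promoters came from RefSeq's R64 genome, with gene starts at coding starts.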

Additional observations from a re-analysis of the deposited data

How the results depend on the processing

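Over the 10 genes and 6 comparisons, the alternative fits of expression gave 840 results, which share libraries and are not independent. Of these, 793 kept the same direction and call, 28 lost the call, 5 gained one and 14 turned sign. Scaling by total counts alone moved the members called lower on Day 3 against Log phase from 5 to 3. Over all 5930 genes tested it moved those called lower from 2038 to 1438, and those called higher from 2047 to 2706. Leaving out each library in turn gave 1 to 3 members higher from Day 3 to Day 4. No called change turned sign. The signs that turned were those of uncalled changes. PDC5 on Day 2 against Log phase became 0.35 with total counts, 0.11 with tailed reads and −0.27 to 0.17 without 1 library. From Day 2 to Day 3, ADH3 ranged from −0.11 to 0.15 without 1 library, and ALD6 was −0.038 with tailed reads and −0.066 to 0.42 without 1 library. From Day 3 to Day 4, PDC5 ranged from −0.46 to 0.11 without 1 library and ADH2 was 0.045 with tailed reads. From Day 2 to Day 4, ADH3 was 0.23 with tailed reads and −0.16 to 0.069 without 1 library, and ALD6 was −0.19 and −0.16 to 0.29. Counting tailed reads gave isozyme shares of 0.0775% and 0.439% for PDC6 in Log phase and on Day 2, 0.732%, 1.13%, 19.3% and 23.2% for ADH2 in the 4 groups, 9.10%, 55.9% and 66.0% for ALD4 and 8.91%, 76.4% and 86.1% for ACS1 in Log phase, Day 3 and Day 4. With 600 bases before the start, 7 genes held the Adr1 letters, 1 the Mig1 letters and 7 the stress element. The shares of all promoters in that window were 59.8%, 6.78% and 39.7%. The cause of these changes was not tested.

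Tail calls were less stable. Members called longer on Day 2 against Log phase went from 1 to 2 with at least 30 tailed reads. They went to 0 without weights, on a log2 scale or less the library median. Over all genes these calls went from 59 of 5388 to 133 of 4581, and to 0 in the settings that gave 0 members. Members shorter on Day 3 against Log phase went from 1 to 0 without weights or less the median, where all genes went from 109 to 26 and 4. Members shorter from Day 2 to Day 3 went from 2 to 1 without weights, 1 on a log2 scale and 0 less the median. All genes there went from 1174 to 782, 1073 and 0. Less the median, Day 4 against Log phase had 2 members longer and 0 shorter, and Day 4 against Day 2 had 1 longer and 0 shorter. That centring turned the split over all genes from 64 longer and 464 shorter to 174 and 106 for Day 4 against Log phase, and from 51 and 1723 to 266 and 144 for Day 4 against Day 2. Leaving out each library gave 0 to 0 longer on Day 2, 0 to 1 shorter on Day 3, 0 to 1 longer and 0 to 1 shorter on Day 4 against Log phase, 0 to 1 shorter from Day 2 to Day 3 and 0 to 1 from Day 2 to Day 4.

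With a replicate block, no count of expression calls among the 10 genes changed. Tail calls under the block went to 0 longer on Day 2, 0 shorter on Day 3 against Log phase and 0 shorter from Day 2 to Day 3, and the replicate numbers were not found to pair the libraries.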
